A study of Mus musculus with 4 samples.

Results

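Apolipoproteins are the proteins that hold lipoprotein particles together and steer them to enzymes and receptors, and most of them are made by hepatocytes. Apolipoprotein B is the scaffold of very low density lipoprotein, apolipoproteins A-I and A-II build high density lipoprotein, apolipoprotein E carries remnant particles to their receptors, and the small C apolipoproteins together with A-V tune how fast triglyceride is removed from plasma. Their genes lie partly in clusters, of which Apoe, Apoc1 and Apoc4 form one and Apoa1, Apoc3, Apoa4 and Apoa5 another.

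The binding of the small heterodimer partner (SHP) was examined at 10 such genes, Apoe, Apoa1, Apoa2, Apoa4, Apoa5, Apob, Apoc1, Apoc3, Apoc4 and Apoh. Peaks were taken as belonging to them when the peak interval lay within 5 kb of the gene body in GENCODE M1, which uses the mm9 build of the peak lists. By this rule 16 of 1508 peaks with vehicle and 20 of 3155 peaks with FGF19 were found. The genes were chosen from the presence and the fold enrichment of their peaks, so that these values are given as a description and without a test.

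SHP is an orphan receptor without DNA contacts of its own, brought to chromatin by other factors, and FGF19 (fibroblast growth factor 19) is a gut hormone that reaches the liver after a meal. The study asked where SHP sits in hepatic chromatin with and without FGF19. Wildtype male C57BL/6 mice aged 8 to 12 weeks were fasted for 12 h, received either vehicle or 1 mg/kg FGF19 through the tail vein, and were killed for liver chromatin 2 h later. Each group is 1 chromatin immunoprecipitation (ChIP) library pooled from 3 mice, with its own input library. There was no replicate, no spread between animals can be given, and differences between the groups therefore carry no p-value.

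After removal of duplicate tags the ChIP libraries held 15473647 tags with vehicle and 13444078 with FGF19, and the inputs held 16164473 and 17367587. The reads were not analysed here, so neither the strand nor the splicing of the tags over exons was checked, and a peak below means enrichment in the SHP ChIP library over input. The peak lists hold no expression values, so liver markers could not be checked, and a whole liver cannot tell fewer binding cells from less binding per cell. In what follows, pileup is the number of extended ChIP tags over the peak summit, and fold enrichment is the pileup over the local input background. The input background is that background in tags, calculated back from the pileup and the fold enrichment, and is not a separate measurement. Pileups are given with exact Poisson 95% intervals and ratios of pileups per tag with exact conditional binomial 95% intervals, both of which cover counting error only. Ratios per tag are not corrected for the tag extension, 240 bp with vehicle and 260 bp with FGF19.

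SHP peaks at the apolipoprotein genes lay mostly over exons, among them last exons, short internal exons and the long internal exon 26 of Apob. With vehicle 15 and with FGF19 18 summits fell inside a member gene body, and 15 and 17 of these fell in an exon of the representative transcript, the one with the longest coding sequence. Of the 15 vehicle summits 6 lay in the last exon of that transcript and 0 in its first, and of the 17 FGF19 summits 7 lay in the last exon and 0 in the first. Without Apob, last exons were 5 of the 10 exons with a vehicle summit and 6 of the 12 with an FGF19 summit. Across the 8 genes with such a summit, exons made up 29.7% of the transcript length. Peaks covered 42.7% of the exon bases with vehicle and 45.5% with FGF19, against 2.57% and 4.19% of the intron bases. Apob and Apoh held 25254 and 17914 of the 51517 intron bases and so weigh heavily in the intron shares. Intron cover by gene ranged from 0% at Apob and Apoa5 in both lists to 35.1% (vehicle) and 47.3% (FGF19) at Apoa1. As the 8 genes were kept for having a summit in an exon, part of the contrast was set by that choice.

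The exon sequences below are shown because the peaks were centered near the middle of these exons. They were read from the mm9 genome in the direction of transcription, with the exon in capitals and intron bases in lower case. Apoe exon 3, at chr7:20282828-20283026 on the minus strand with intron before the exon only, Apoa1 exon 3, at chr9:46037169-46037382 on the plus strand, Apoc1 exon 2, at chr7:20277207-20277414 on the minus strand, and Apoh exon 5, at chr11:108268575-108268823 on the plus strand, are coding over their whole length.
Apoe exon 3: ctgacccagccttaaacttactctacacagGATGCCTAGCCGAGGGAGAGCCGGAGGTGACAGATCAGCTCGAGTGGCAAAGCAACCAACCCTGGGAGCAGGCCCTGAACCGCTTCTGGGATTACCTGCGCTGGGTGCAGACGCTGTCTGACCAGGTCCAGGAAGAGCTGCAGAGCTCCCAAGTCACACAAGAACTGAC
Apoa1 exon 3: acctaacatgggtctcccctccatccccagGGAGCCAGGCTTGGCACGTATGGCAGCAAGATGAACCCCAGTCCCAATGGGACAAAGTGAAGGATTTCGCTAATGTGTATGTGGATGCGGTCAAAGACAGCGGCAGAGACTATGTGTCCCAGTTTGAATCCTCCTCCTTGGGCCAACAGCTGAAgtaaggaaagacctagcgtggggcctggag
Apoc1 exon 2: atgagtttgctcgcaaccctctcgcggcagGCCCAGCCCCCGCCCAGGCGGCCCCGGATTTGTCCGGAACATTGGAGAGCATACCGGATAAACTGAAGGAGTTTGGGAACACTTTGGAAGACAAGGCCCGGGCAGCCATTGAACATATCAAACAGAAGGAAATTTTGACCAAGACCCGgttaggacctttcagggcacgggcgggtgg
Apoh exon 5: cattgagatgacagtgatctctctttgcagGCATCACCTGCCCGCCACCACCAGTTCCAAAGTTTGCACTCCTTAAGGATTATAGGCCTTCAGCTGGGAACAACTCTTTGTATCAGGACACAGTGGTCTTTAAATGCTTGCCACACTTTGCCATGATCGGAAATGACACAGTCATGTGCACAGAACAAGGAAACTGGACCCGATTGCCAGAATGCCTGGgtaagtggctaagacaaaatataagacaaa
Each is preceded by ag and followed by gt, the splice acceptor and donor letters, although the letters after Apoe exon 3 are not printed. The exons are 169, 154, 148 and 189 bp long, with a GC content of 60.4%, 52.6%, 54.7% and 49.2%. With vehicle the summits lay 10 bp, 20.5 bp, 14.5 bp and 10 bp from the middle of the exon, in that order. All 4 exons lay whole inside their vehicle peak, which ran past the exon by 80 to 126 bp at its lower coordinate and by 57 to 112 bp at its upper one. Over all exons with a summit and shorter than 500 bp, 5 of 7 with vehicle and 7 of 9 with FGF19 were covered whole.

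At Apoe, which encodes the ligand by which remnant particles are taken up through the low density lipoprotein receptor family, the SHP ChIP libraries had the strongest peak of both lists. The gene lies on the minus strand at chr7:20281458-20284515 and has 4 exons in its representative transcript, of which the last, at chr7:20281458-20282452, is 995 bp long. With vehicle the peak over this exon, at chr7:20281589-20282567, had a pileup of 200 tags (95% interval 173 to 229.7) and a fold enrichment of 28.1. A separate vehicle peak at chr7:20282708-20283091 lay over exon 3, with a pileup of 79 tags (62.5 to 98.5) and a fold enrichment of 11.8. With FGF19 1 peak, at chr7:20281524-20283115, ran over both exons, with a pileup of 182 tags (156.5 to 210.4) and a fold enrichment of 36.6.

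The Apoe peak ranked 1 by fold enrichment and 1 by q-value in both lists, with a −log10 q of 212 and 218, and 5 by pileup with vehicle and 14 with FGF19. The vehicle and FGF19 summits lay 2413 and 2580 bp from the start of exon 1, 167 bp from each other, and both in coding sequence. The stretch between them is shown since it holds the strongest enrichment in either list, at chr7:20281915-20282122 on the minus strand, with the bases from one summit to the other in capitals and 70.8% of these G or C.
Apoe exon 4: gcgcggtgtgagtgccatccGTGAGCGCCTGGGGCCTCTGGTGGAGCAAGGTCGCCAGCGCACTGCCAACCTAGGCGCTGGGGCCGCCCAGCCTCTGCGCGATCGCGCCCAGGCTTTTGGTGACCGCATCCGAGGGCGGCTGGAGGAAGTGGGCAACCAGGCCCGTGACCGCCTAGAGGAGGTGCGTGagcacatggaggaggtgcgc
Since 1 tag was kept per position and strand, a pileup could not exceed 480 tags with vehicle or 520 with FGF19, and the Apoe summits stood at 41.7% and 35% of these limits.

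The Apoe fold enrichment was 1.30 times as high with FGF19 as with vehicle, but the tags themselves differed less. Per 1000000 ChIP tags the pileup was 12.9 with vehicle and 13.5 with FGF19, a ratio of 1.05 (95% interval 0.852 to 1.29). At the vehicle and FGF19 summits, which lay 167 bp apart, the input background came to 6.15 and 4.00 tags. A ratio of 1 lay inside the interval, so a change in bound tags at Apoe was not detectable at this depth.

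**Figure D1:**
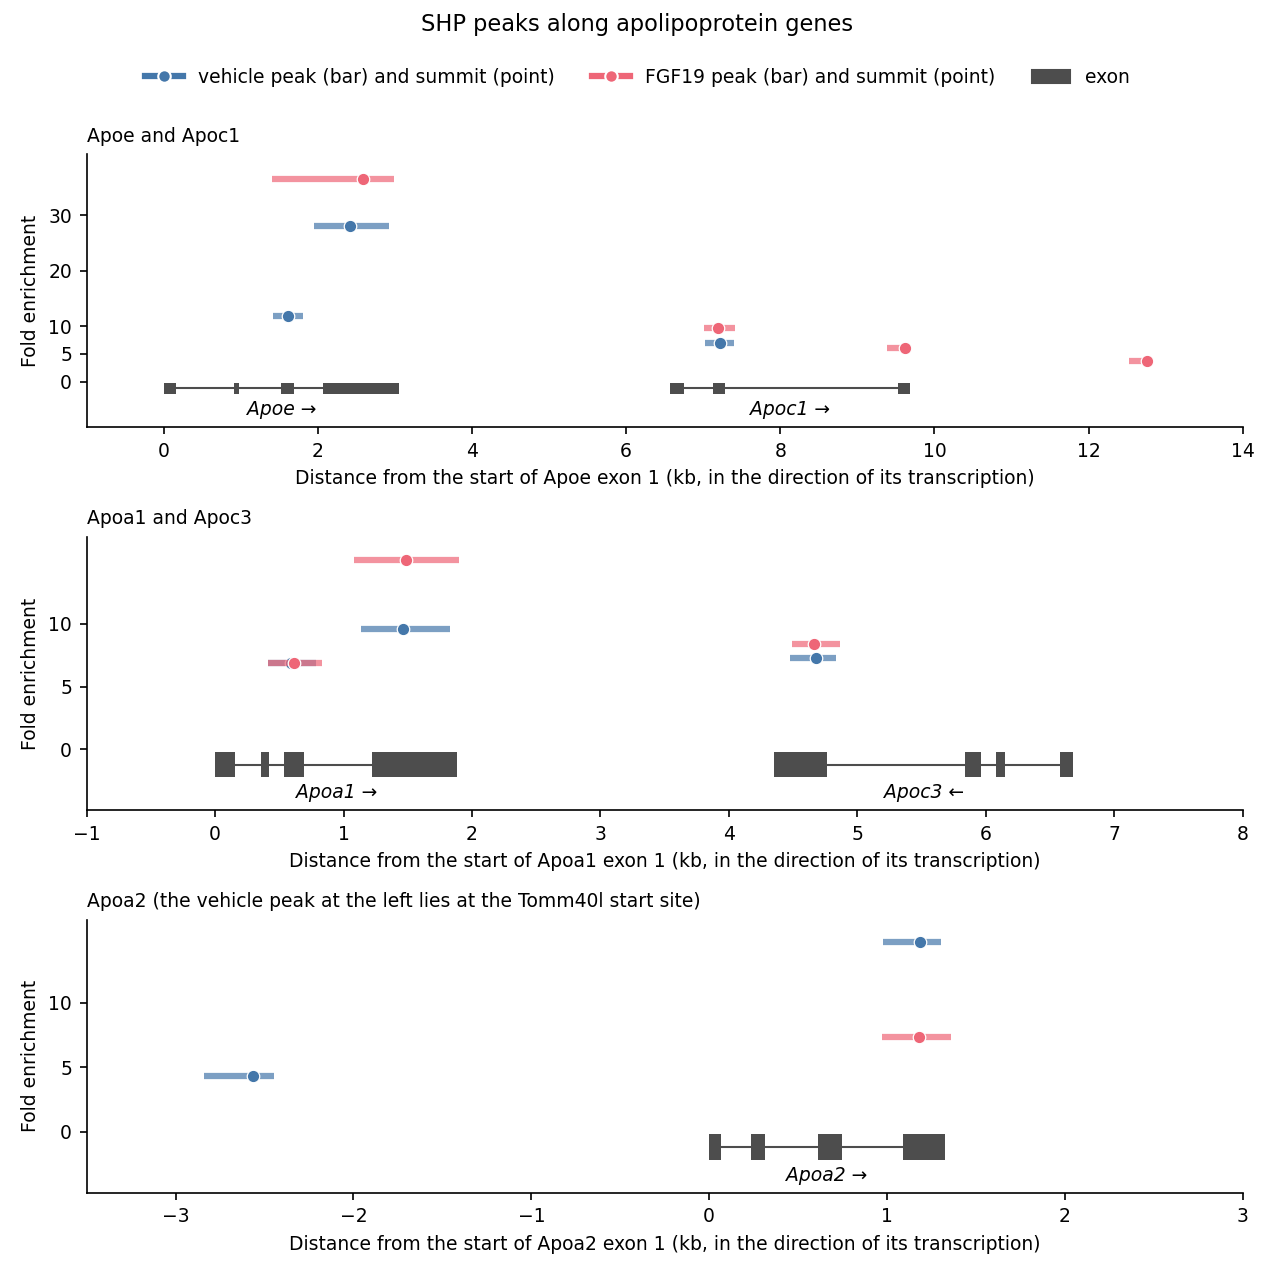
SHP peaks along Apoe and Apoc1, Apoa1 and Apoc3, and Apoa2, with the distance in kb from the start of exon 1 of the named gene on the x axis and the fold enrichment on the y axis. Bars span the peak and points mark the summit (blue vehicle, red FGF19, 1 library each), grey boxes are exons and arrows give the direction of transcription relative to the named gene; the tallest peaks, 28.1 and 36.6, stand over the last exon of Apoe, and no summit stands over a first exon of these genes.

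Apoa1 encodes apolipoprotein A-I, the main protein of high density lipoprotein and the activator of the enzyme that esterifies its cholesterol. The gene lies on the plus strand at chr9:46036663-46038549, and in both lists a peak lay over exon 3 and another over exon 4, the last. At exon 4 (662 bp) the pileup was 146 tags (95% interval 123 to 172) with vehicle and 154 (131 to 180.3) with FGF19. The enrichment over input there was 9.57 without and 15.1 with FGF19, a ratio of 1.57. This was the only one of the 12 apolipoprotein regions with a peak in both lists whose fold enrichment was at least 1.5-fold higher with FGF19.

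At Apoa1 exon 4 the input background was 14.4 tags with vehicle and 9.29 with FGF19, while the pileup per tag had a ratio of 1.21 (0.962 to 1.53). At exon 3 the values were nearly equal, 6.87 and 6.85, on pileups of 47 and 39 tags. The 2 summits of each exon lay 22 bp apart at exon 3 and 20 bp apart at exon 4.

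Apoa2 encodes apolipoprotein A-II, the other structural protein of high density lipoprotein, and showed the opposite difference. Over its last exon, at chr1:173156274-173156510, enrichment over input was 14.7-fold without and 7.37-fold with FGF19, a ratio of 0.502, and this was the only apolipoprotein region at least 1.5-fold lower. The pileups were 61 tags (46.7 to 78.4) and 52 tags (38.8 to 68.2), which per 1000000 tags came to 3.94 and 3.87 with a ratio of 0.981 (0.664 to 1.44). The input background was 3.23 tags with vehicle and 6.19 with FGF19. At both regions past the 1.5-fold limit the pileup ratio was indistinguishable from 1 at this depth. As the input background was calculated from pileup and fold enrichment, with similar pileups it had to move against the fold enrichment. The part of the input in these differences was not tested.

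A further vehicle peak within 5 kb of Apoa2, at chr1:173152342-173152741, had its summit 5 bp from the transcription start site (TSS) of Tomm40l, with a pileup of 49 tags and a fold enrichment of 4.34. It lay 2444 bp from the Apoa2 body, the farthest of the vehicle peaks, and the FGF19 list held no peak there. The nearest vehicle peak beyond the 5 kb limit lay 16444 bp from Apoe.

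Apoc1 and Apoc3 encode small exchangeable apolipoproteins that slow the clearance of triglyceride-rich particles. At Apoc1 exon 2 the pileup was 44 tags (32.0 to 59.1) with vehicle and 46 (33.7 to 61.4) with FGF19, and the fold enrichment was 6.89 and 9.72. The input background there was 5.53 and 3.83 tags, and the ratio of pileups per tag was 1.20 (0.778 to 1.86). At exon 3, the last exon of Apoc1, a peak was found with FGF19 only, with 28 tags and a fold enrichment of 6.07.

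The peak at Apoc3 lay over its last exon (411 bp). Its pileup was 44 tags with vehicle and 45 with FGF19, its fold enrichment was 7.30 and 8.36, and the summits lay 10 bp apart. Apoc3 runs toward Apoa1 from the opposite strand, and the Apoc3 peak was within 5 kb of both genes, as the Apoc1 exon 2 peak was of both Apoc1 and Apoe.

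Apoa5 encodes apolipoprotein A-V, which promotes triglyceride removal by lipoprotein lipase. Its peak covered 69.6% of the last exon (2152 bp) with vehicle and 72.9% with FGF19, with fold enrichments of 5.56 and 5.51 on pileups of 34 and 39 tags. The summit lay in coding sequence with vehicle and outside it with FGF19, 647 bp farther along the exon. The ratio of pileups per tag was 1.32 (0.812 to 2.16), the largest of the 12 regions.

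The other 2 genes had no peak over their body. Apoa4, which encodes an apolipoprotein of intestinal particles and lies between Apoc3 and Apoa5, had 0 peaks within 5 kb in either list, although its last exon is 1181 bp long. Apoc4, a neighbor of Apoc1 with a minor plasma product, had 0 with vehicle. With FGF19 it had 1, an intergenic peak at chr7:20271681-20271996 with 16 tags and a fold enrichment of 3.75, which lay 2837 bp from Apoc1 and 4982 bp from the TSS of Apoc2 and was the farthest FGF19 peak from a member body. The nearest FGF19 peak beyond the limit was 13014 bp from Apoc4.

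Apob encodes the scaffold protein that is wrapped around each very low density lipoprotein particle as it is assembled. The gene spans chr12:7984454-8023641 with 29 exons, and all 5 summits of each list lay in exon 26 (7467 bp) or exon 29 (1821 bp). Exon 26 held 4 summits with vehicle, with fold enrichments of 4.15, 3.77, 4.56 and 4.67 along the gene, and 4 with FGF19, with 4.36, 2.53, 4.14 and 5.24. Their pileups were 23 to 35 tags with vehicle and 25 to 33 with FGF19. Exon 29, the last, had fold enrichments of 6.67 and 7.07 on 44 and 42 tags, the strongest of the gene in both lists.

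No summit lay in exons 1 to 25 of Apob, which are 39 to 374 bp long, nor in its introns, and the first summit was 29583 bp from the start of exon 1. The weakest member peak of all, with a fold enrichment of 2.53, had 25 tags over an input background of 9.29 tags, 4.97 times the genome-wide expectation of 1.87 tags. The vehicle summit nearest to the 3′ end of exon 26 was 59 bp from the start of a shorter annotated Apob transcript and within its first exon, and the corresponding FGF19 summit was 130 bp from that start.

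**Figure D2:**
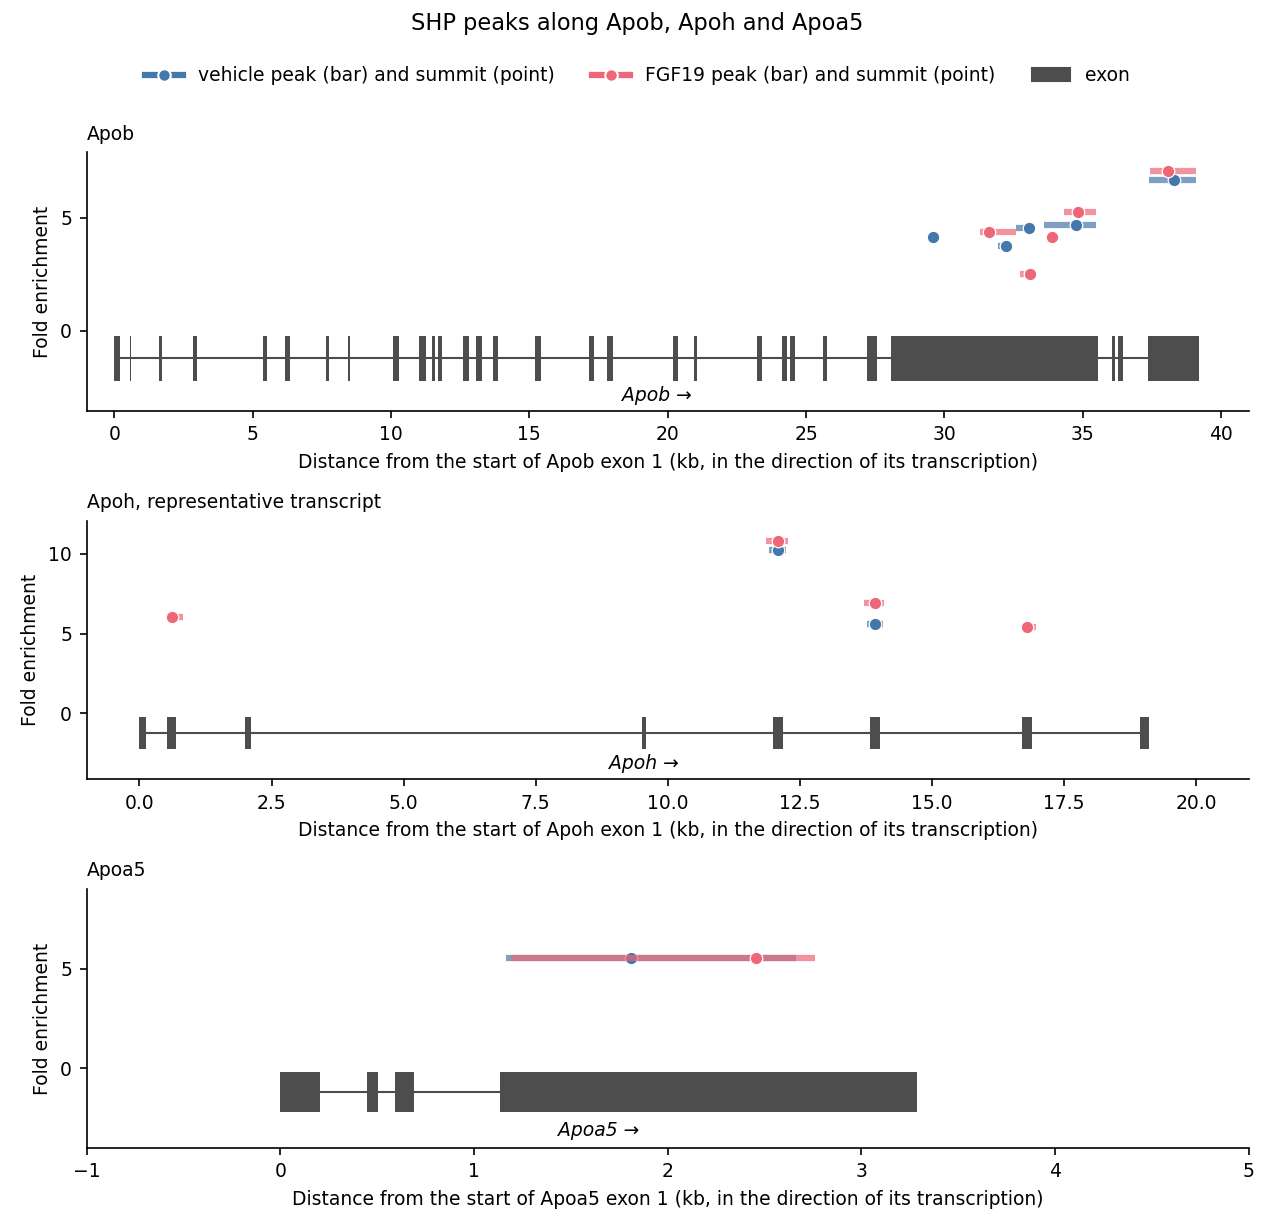
SHP peaks along Apob, Apoh and Apoa5, with the distance in kb from the start of exon 1 on the x axis and the fold enrichment on the y axis (bars span the peak, points mark the summit, blue vehicle, red FGF19, 1 library each, grey boxes exons). All Apob summits stand at or beyond 29583 bp, over exons 26 and 29, and each Apoh summit of the transcript drawn stands over a separate short exon.

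Apoh encodes beta-2-glycoprotein I, a phospholipid-binding plasma protein found partly on lipoproteins. Its exons are short and widely spaced, taking up 6.23% of the representative transcript, and its summits fell on them singly. Exon 5 had a fold enrichment of 10.3 with vehicle and 10.8 with FGF19, on pileups of 40 tags (28.6 to 54.5) and 30 tags (20.2 to 42.8), with summits 3 bp apart. Exon 6 had 5.59 and 6.92, on 26 and 22 tags, with summits 2 bp apart. The ratios of pileups per tag at these exons were 0.863 (0.519 to 1.42) and 0.974 (0.526 to 1.79).

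With FGF19 only, peaks were also found at Apoh exon 2, with 23 tags and a fold enrichment of 6.05, and at exon 7, with 22 tags and 5.44, their summits 1 bp and 0.5 bp from the middle of the exon. Exons 1, 3, 4 and 8, of 115, 97, 77 and 157 bp, had no summit in either list, exon 8 being the last. Exon 6 is shown since it had the lowest pileups of the 12 regions with a peak in both lists, at chr11:108270415-108270654 on the plus strand, with the exon in capitals.
Apoh exon 6: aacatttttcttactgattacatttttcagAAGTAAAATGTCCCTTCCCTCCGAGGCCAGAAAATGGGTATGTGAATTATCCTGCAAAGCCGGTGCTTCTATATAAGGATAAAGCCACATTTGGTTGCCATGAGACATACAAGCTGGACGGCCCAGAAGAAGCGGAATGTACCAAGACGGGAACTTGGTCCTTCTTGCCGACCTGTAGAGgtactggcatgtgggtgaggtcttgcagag
The remaining 2 FGF19 peaks assigned to Apoh lay far upstream, where a longer annotated transcript begins inside Prkca, a protein kinase C gene on the opposite strand. One summit was 144 bp from that start, with 15 tags and a fold enrichment of 5.16, and the other was 179 bp from the TSS of Prkca, with 20 tags and 4.34. Neither lay in an exon.

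Exons with a summit were on the whole longer than those without, with exceptions. A longer exon has more bases in which a summit can fall, and the part of this in the difference was not tested. Over the 8 genes, the 15 exons with a summit in either list were 148 to 7467 bp long with a median of 198 bp, and the 45 without were 39 to 374 bp long with a median of 147 bp. Without Apob, whose 29 exons weigh heavily, the medians were 189 and 103 bp for 13 and 18 exons. The longest exon held a summit in both lists at Apoe, Apoa1, Apoa2, Apoa5, Apob and Apoc3, with FGF19 only at Apoh, and in neither list at Apoc1, whose longest exon is the first. Length alone did not sort the exons. At Apoc1 the vehicle summit lay on the shortest exon (148 bp), and the FGF19 summits lay on that and the next shortest (153 bp). At Apoh the vehicle summits lay on exons of 189 and 180 bp and not on the longest, and the 1181 bp exon of Apoa4 and the 374 bp exon of Apob had none.

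**Figure D3:**
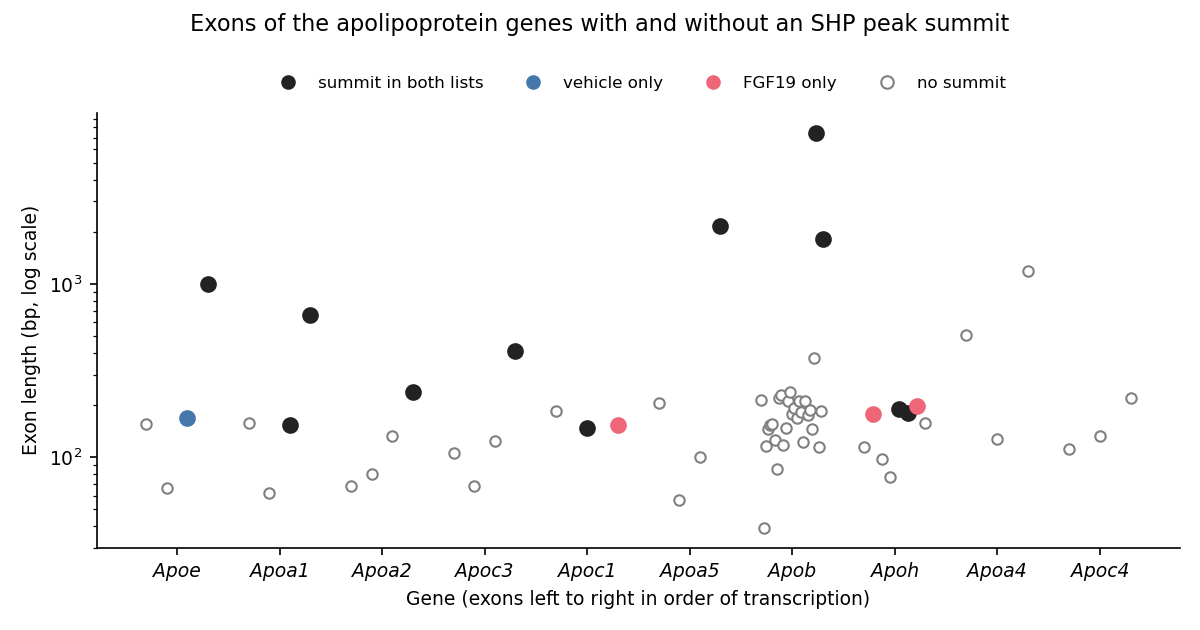
Length in bp (log scale) of each exon of the 10 apolipoprotein genes, in order of transcription within a gene, filled where an SHP summit lay in it (black both lists, blue vehicle only, red FGF19 only) and open where none did. Filled points run from 148 to 7467 bp and include no first exon, and the exons of Apoa4 and Apoc4 are all open.

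Between the lists, 12 apolipoprotein regions were covered in both, out of 678 over the whole genome. They took up 14 peaks of each list, leaving 2 peaks found with vehicle only, at Tomm40l and in Apob exon 26, and 6 found with FGF19 only. Fold enrichment was at least 1.5-fold higher with FGF19 at 1 of the 12, against 9.44% of the 678 regions, and at least 1.5-fold lower at 1, against 13.9%. By pileup per tag 0 of the 12 were 1.5-fold higher, against 12.5%, and 0 were 1.5-fold lower, against 1.92%. Since the members were chosen by their peaks, nothing is read from these shares.

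The median log2 ratio of fold enrichment was 0.12 over the 12 regions (quartiles -0.01 and 0.33) and -0.02 over the 678 (-0.36 and 0.32). The median log2 ratio of pileup per tag was 0.09 and 0.20, both without correction for the longer tag extension with FGF19. With the extension included, the median over the 12 regions was -0.02. All 12 intervals of the pileup ratio held a ratio of 1. The summits compared within a region lay a median of 26 bp apart, but 1443 bp apart at 1 Apob exon 26 region. Where summits lie far apart, the ratio does not compare the same site. The input background was lower with FGF19 at 10 of the 12 regions, with a median ratio of 0.81, whereas over the 678 regions the median ratio was 1.01. These backgrounds are not corrected for library size, the genome-wide expectation being 1.99 tags with vehicle and 1.87 with FGF19. They are also calculated from the fold enrichment that served to choose the genes, so nothing is read from the comparison.

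**Figure D4:**
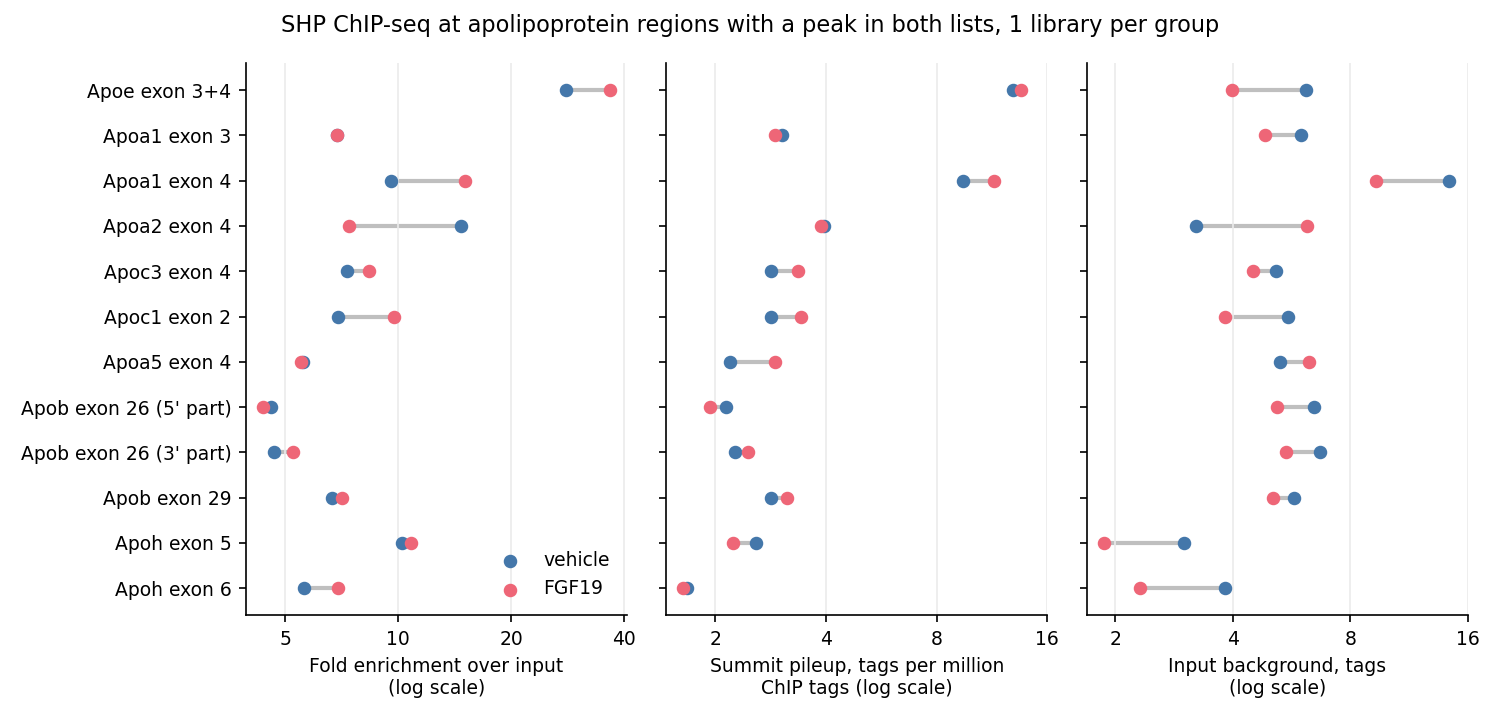
Fold enrichment, summit pileup per 1000000 ChIP tags and input background in tags (all log scales) at the 12 apolipoprotein regions with a peak in both lists, with vehicle in blue, FGF19 in red and a grey line joining the pair, 1 library each. The pair at Apoa2 exon 4 lies far apart in fold enrichment (14.7 and 7.37) and in input background (3.23 and 6.19) but close in pileup per 1000000 tags (3.94 and 3.87). The input background is calculated from the pileup and the fold enrichment.

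The input background at these summits was over 1.1 times the genome-wide expectation at 16 of 16 peaks with vehicle and at 19 of 20 with FGF19, against 96.1% and 96.8% of all peaks, and since the caller sets this expectation as the floor of the background the count says little. The medians were 2.91 and 2.27 times the expectation at the apolipoprotein summits and 2.44 and 2.81 times over all peaks. The highest was 7.23 times, at Apoa1 exon 4 with vehicle, and the lowest 1.00 times, at Apoh exon 5 with FGF19. Of the peaks, 15 of 16 vehicle and 18 of 20 FGF19 peaks had a fold enrichment above the median of their list, which was 4.14 and 4.05.

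The 5 kb rule takes a peak wherever it lies relative to the exons, but the genes and the classes of position were chosen with earlier results of these data known, so the positions are a description too. The summit lay in an exon of any transcript in 16 of the 16 peaks with vehicle and 17 of the 20 with FGF19, against 51.1% and 50.6% of all peaks. It lay in an exon and over 1 kb from every TSS in 11 of 16 and 12 of 20, against 17.5% and 8.68%. It lay in an exon that is the first exon of no protein-coding transcript in 14 of 16 and 16 of 20, against 19.8% and 10.5%. Within 1 kb of a TSS were 31.2% and 35% of the apolipoprotein peaks, and 72.7% and 81.8% of all peaks.

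A peak within 5 kb was present at 8 of the 10 genes with vehicle, 9 with FGF19 and 8 in both lists. With FGF19, Apoc4 counted only through the intergenic peak, which lay nearer to Apoc1, and within 1 kb the FGF19 count was 8. Over 22380 protein-coding genes the shares were 7.93%, 16.3% and 4.31%, and as peaks served to choose the genes nothing is read from the comparison.

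The exon position was shared with other genes for abundant liver plasma proteins, in lists chosen with earlier results of these data known. Over 24 plasma carrier genes, 15 had a peak with vehicle and 14 with FGF19, where all protein-coding genes gave 7.93% and 16.3%. Of their 47 and 45 peaks, 93.6% and 88.9% lay in an exon that is no first exon, against 19.8% and 10.5% of all peaks. The strongest of these genes by fold enrichment were Alb (25.9 with vehicle, 23.0 with FGF19), Ahsg (19.1 and 17.1), Ttr (11.8 and 18.8), Trf (15.3 and 10.7) and Hp (14.1 and 5.96), followed by Sepp1, Rbp4, Hpx, Fabp1 and Pzp. Over 12 Serpina genes, which encode serine protease inhibitors, 90.9% of 11 and 90% of 10 peaks lay in an exon that is no first exon. Serpina3k had fold enrichments of 15.5 and 21.8, and Serpina1b of 16.5 and 20.9. Serpina1c, Serpina3n, Serpina3m and Serpina11 had weaker peaks.

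Of 36 genes whose products assemble, remodel, take up or regulate lipoproteins, 9 had a peak with vehicle and 12 with FGF19, where all protein-coding genes gave 7.93% and 16.3%. Of their 14 and 15 peaks, 57.1% and 86.7% lay within 1 kb of a TSS, against 72.7% and 81.8% of all peaks. Fold enrichment reached 8.19 at Saa4, a serum amyloid A gene with vehicle peaks only, and 6.96 at P4hb, the small subunit of the microsomal triglyceride transfer complex. Lsr, Mttp, Tm6sf2 and Pon1 had peaks with FGF19 only, up to 5.48, of which the strongest at Lsr lay 76 bp from the TSS of Usf2 and the one at Mttp 131 bp from that of Rg9mtd2, and Hnf4a, Ppara and Lcat had peaks in both lists. The number of peaks is small, and the difference from the apolipoprotein genes was not tested.

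Of 22 other genes with apolipoprotein names, 3 had a peak with vehicle and 4 with FGF19, where all protein-coding genes gave 7.93% and 16.3%. With so few genes, nothing is read from these counts. Clu, which encodes the chaperone also called apolipoprotein J, had fold enrichments of 9.35 and 6.70, and Apof, which encodes an inhibitor of cholesteryl ester transfer, had 4.05 and 5.31, with the TSS of Stat2 nearest to both summits at 748 and 887 bp. The peaks within 5 kb of Apom, 3.04 and 3.94, lay 127 and 69 bp from the TSS of Bag6, and Apoc2, the lipoprotein lipase activator, had the 3.75 peak with FGF19 that it shared with Apoc1 and Apoc4. The remaining 18 had none in either list.

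**Figure D5:**
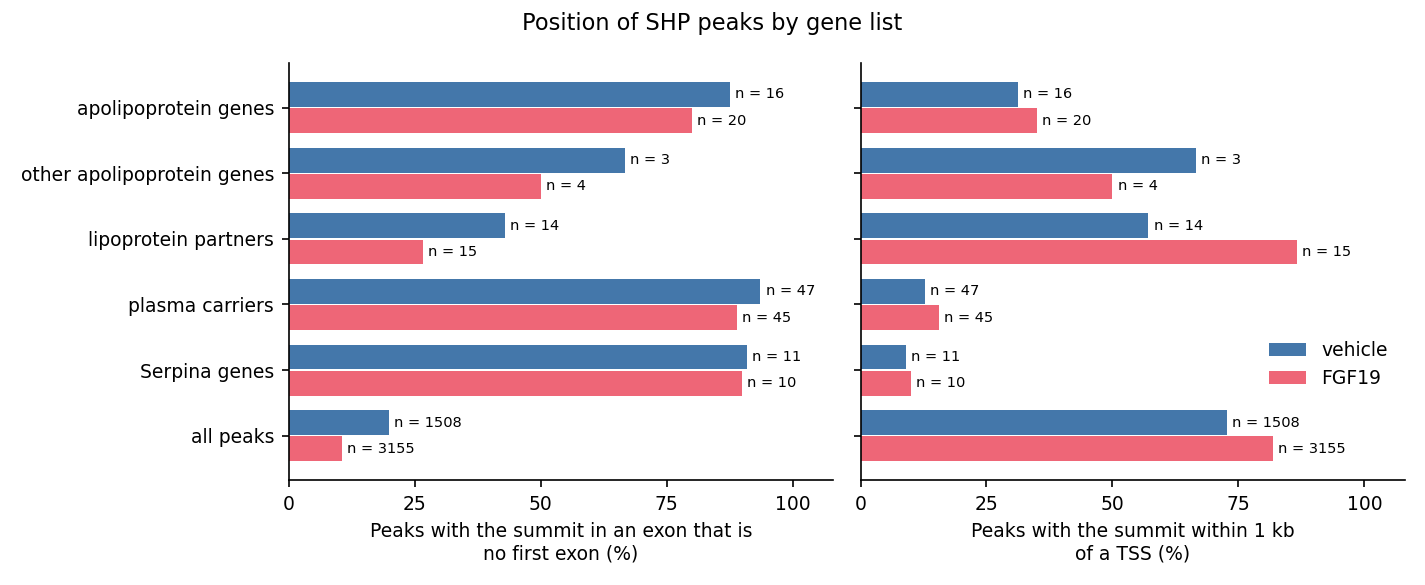
Share of SHP peaks with the summit in an exon that is no first exon (left) and within 1 kb of a TSS (right), in percent, for the 10 apolipoprotein genes, 4 other gene lists and all peaks, with vehicle in blue and FGF19 in red and n the number of peaks. The apolipoprotein bars (87.5% and 80% at the left) stand near those of the plasma carriers and Serpina genes and apart from the 19.8% and 10.5% of all peaks.

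Short motifs were counted on both strands in the 201 bp around each summit. AGGTCA, the nuclear receptor half-site, was found in 2 of 16 vehicle windows (12.5%) and 4 of 20 FGF19 windows (20%), against 9.08% and 7.13% of all windows in the lists. The windows with it were at Apoa2 exon 4 and Apob exon 26 in both lists and at Apoh exon 2 with FGF19. Of the 4 FGF19 windows, 2 lay in the same exon, Apob exon 26. These counts are small, and the difference from all windows was not tested. CAAAGTCCA, an HNF-4 type site, and TCACNCCAC, a sterol regulatory element core, were in 0 member windows and in at most 0.199% and 0.531% of all windows. CCCCGCCCC, bound by SP1, was in 0 member windows against 13.1% and 14.8% of all, and ATTGGC, bound by NF-Y, in 0 against 11.2% and 11.1%. AANATGGC, the YY1 core, was in 1 vehicle window, the one at Tomm40l, and in 0 FGF19 windows, against 9.75% and 7.54%.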

How the data were processed

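ChIP-seq of SHP was carried out on liver of mice given vehicle or FGF19, with 1 library of 3 pooled mice and 1 input per group. The authors processed the reads with CASAVA 1.8.2, aligned them to mm9 with Bowtie 1.0.0 allowing 2 mismatches, and ran MACS2 2.0.10.20130501 on each ChIP library with the input of the same group at a q-value cutoff of 0.05, keeping 1 tag per position and strand and extending tags to 240 bp (vehicle) or 260 bp (FGF19). The deposited signal is the pileup at the summit, and the deposited −log10 q-value and −log10 p-value came unaltered from that program. The deposited fold enrichment is the ratio of pileup to local input background, with 1 added to each. The larger input library was scaled down to the ChIP library.

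From these lists the input background was computed as (pileup + 1) / fold enrichment − 1. Peaks within 5 kb of a gene body, exons, coding sequence and start sites were taken from GENCODE M1, and sequences from the mm9 genome. Peaks sharing at least 1 bp made a region in both lists, and the peak with the largest fold enrichment on each side stood for it. All peaks of the 10 genes are named, and of each further gene list at most 10 genes with a peak, strongest first, of which 1 is not reported here. The genes, gene lists and rules were chosen with earlier results of these data known. Pileup ratios were divided by the ChIP tags. With 1 library per group no test between groups was made. Python 3.11.15, pandas 2.3.3, numpy 2.4.6 and scipy 1.17.1 were used, and figures were drawn with matplotlib 3.10.9. The routines were tested on simulated data with 6 known answers, all 6 of which were recovered. Alternatives covered the distance to the gene, the q-value cutoff, the length of the FGF19 list, the overlap, the measure of binding and the annotation.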

Additional observations from a re-analysis of the deposited data

How the results depend on the processing

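No paired analysis was possible because each group is 1 library. The counts of genes, peaks and regions, the median log2 ratio and the exon counts were recomputed in 56 alternative settings of single results. In all 56 a count stayed within 1.5 times its main value or the median log2 ratio moved by at most 0.65. That limit is the median half-width of the counting intervals of the pileup ratios. It is wide beside the quartiles of the region ratios, -0.01 and 0.33. Genes with a peak numbered 8 to 9 (vehicle) and 8 to 10 (FGF19), the upper values at 10 kb, where Apoa4 was reached by peaks of its neighbors. With the FGF19 list shortened to the length of the vehicle list, 16 FGF19 peaks remained at 8 genes. Regions in both lists ranged from 9, with summits at most 100 bp apart, to 13. The median log2 ratio was 0.12 by fold enrichment, 0.09 by pileup per 1000000 tags, 0.08 by −log10 q-value and -0.02 by pileup over tags times extension, so its sign depends on the measure. Per gene, 13 of 40 alternative ratios moved, though within 5 kb Apoc1 and Apoc3 repeat the peaks of Apoe and Apoa1. The 2 ratios past 1.5-fold, at Apoa1 and Apoa2, kept their direction, whereas by pileup over tags times extension the log2 ratio turned from 0.38 to -0.05 at Apoe, from -0.01 to 0.29 at Apoa5 and from 0.07 to -0.33 at Apoh. At Apoa2 the log2 ratio was -0.99 by fold enrichment and -0.03 by pileup per 1000000 tags, and at Apoa1 0.65 and 0.28. Counting summits in an exon that is first in no protein-coding transcript, and restricting genes to peaks over their own body, were chosen after seeing the data, and the second gave 0.50 for Apoc1 and 0.20 for Apoc3. With 1 library per group, a difference that the pileup intervals include was not detectable at this depth.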
